A study of Mus musculus with 32 samples.

Results

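The immediate early genes Fos, Egr1, Atf3, Jun, Junb, Ier2, Ier3, Dusp1 and Zfp36 were followed in the livers of 32 mice. They were taken from the array values as the probe sets that the platform annotation pairs with 1 of these genes alone. Of the 9 genes, 8 had such a probe set, out of 17097 genes measured in this way. Jun had 2 of the 9 probe sets found and the other genes had 1 each. Zfp36 was not named alone by any of the 45037 probe sets and was not analysed here. Jun is described by the brighter of its 2 probe sets unless the other is named.

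Each mouse gave 1 Affymetrix mouse expression array of whole liver RNA. WT mice of the C57Bl6/J strain were set beside Cyp2b9/10/13-null mice, in which 3 neighbouring Cyp2b genes had been deleted from the germ line with Crispr/Cas9. Mice of both sexes, 8 to 10 weeks old, received corn oil alone as the vehicle (0 mg/kg) or 1 intraperitoneal injection of TCPOBOP in corn oil (3 mg/kg), and livers were taken after 48 h. TCPOBOP is a ligand of the constitutive androstane receptor (CAR), the nuclear receptor that switches on Cyp2b10 and many other genes of drug metabolism. These choices gave 8 groups of 4 mice. With 4 arrays a group, the number of arrays sets how precise a value can be.

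Values are log2 intensities, so that a step of 1 is a doubling of the signal. Female arrays had medians from 3.78 to 3.89 and male arrays from 3.37 to 3.44, without overlap, so levels of females and males were described side by side and not tested against each other. Every array had hepatocyte markers at a high level, with a mean over 8 markers of 11.64 to 12.35. In whole liver a smaller number of cells of a type and less RNA per cell cannot be told apart. Of 496 pairs of arrays, 0 held identical values.

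Immediate early genes are switched on within minutes of a signal, before any new protein is made, by transcription factors that are already in the cell and are activated by mitogen-activated protein kinases (MAPKs), by calcium or by cyclic AMP. Their mRNAs decay quickly, so their level follows the recent past of the cell. Fos joins Jun or Junb to form AP-1, a dimeric transcription factor, and Egr1 and Atf3 are further transcription factors of the group. Dusp1 is a phosphatase that switches MAPKs off, Zfp36 is a protein that speeds the decay of mRNAs, and Ier2 and Ier3 are short proteins named for their early induction. In liver these genes are known for their sharp rise after partial removal of the organ.

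The DNA just before the start of 4 of these genes is shown because the results below turn on them, Fos for its range across mice, Jun and Junb for differences of opposite sign with TCPOBOP, and Dusp1 for a wide spread with no called difference. Each line holds the 250 bases before the RefSeq transcription start in GRCm38.p6, read 5′ to 3′ on the strand of the gene, with matches to the searched letters in capitals. A RefSeq window was found for 6 of the 8 measured genes, and those of Ier2 and Egr1 were not used here. Fos lies at chr12:85473640-85473889 on the plus strand, Jun at chr4:95052223-95052472 on the minus strand, Junb at chr8:84978749-84978998 on the minus strand and Dusp1 at chr17:26508473-26508722 on the minus strand.
Fos: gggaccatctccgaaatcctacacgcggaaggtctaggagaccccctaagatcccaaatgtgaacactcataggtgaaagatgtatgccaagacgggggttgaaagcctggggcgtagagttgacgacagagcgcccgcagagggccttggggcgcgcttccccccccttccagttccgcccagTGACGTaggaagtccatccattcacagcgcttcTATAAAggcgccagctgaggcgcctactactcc
Jun: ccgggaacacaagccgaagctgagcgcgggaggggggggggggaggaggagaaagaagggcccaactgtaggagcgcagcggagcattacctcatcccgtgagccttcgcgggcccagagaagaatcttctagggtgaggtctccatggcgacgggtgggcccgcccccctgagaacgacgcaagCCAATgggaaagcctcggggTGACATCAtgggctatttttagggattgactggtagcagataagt
Junb: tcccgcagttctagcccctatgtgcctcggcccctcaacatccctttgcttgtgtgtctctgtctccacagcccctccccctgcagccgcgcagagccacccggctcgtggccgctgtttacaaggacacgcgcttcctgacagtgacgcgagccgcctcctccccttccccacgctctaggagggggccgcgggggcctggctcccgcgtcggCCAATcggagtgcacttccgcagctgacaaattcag
Dusp1: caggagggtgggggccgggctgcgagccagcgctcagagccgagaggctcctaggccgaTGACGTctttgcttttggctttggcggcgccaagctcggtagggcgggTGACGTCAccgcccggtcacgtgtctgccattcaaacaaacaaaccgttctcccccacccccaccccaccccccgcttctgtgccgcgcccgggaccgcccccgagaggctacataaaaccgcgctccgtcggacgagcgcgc

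The letters searched, on both strands, were TGACGTCA (the cyclic AMP response element, CRE), its first part TGACGT, the variant TGACATCA, TGANTCA (the AP-1 site), GCGNGGGCG (the EGR site), TATAAA (the TATA box), CCAAT, and the CArG box, which binds serum response factor. TGACGT overlaps TGACGTCA wherever the longer letters occur. Fos held TGACGT from position -66 to -61 and TATAAA from -33 to -28, counted back from the start. Jun held CCAAT from -65 to -61 and TGACATCA from -45 to -38. Junb held CCAAT from -36 to -32. Dusp1 held TGACGTCA from -143 to -136 and a further TGACGT from -191 to -186. Of 32851 RefSeq windows of this length, 1.55% held TGACGTCA, 6.47% TGACGT, 2.93% TGACATCA, 6.75% TGANTCA, 4.70% GCGNGGGCG, 12.4% TATAAA, 33.8% CCAAT and 1.47% a CArG box. A match describes the letters and is not a site of binding, and the windows are short.

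**Figure D1:**
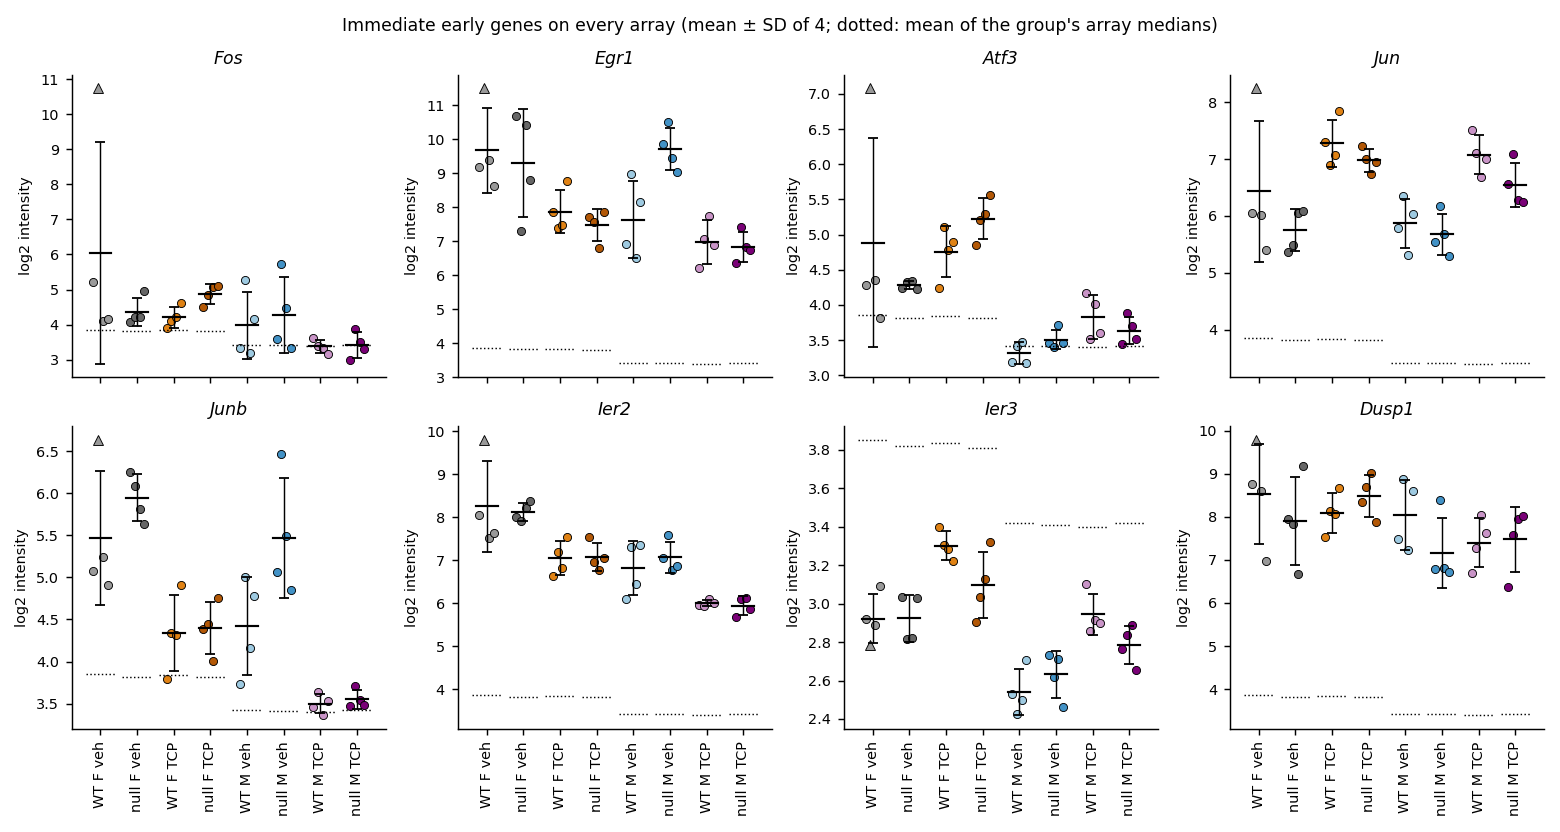
Log2 intensity of the 8 genes on each of the 32 arrays (points), by group, with the mean and SD of the 4 mice (bars), where F is female, M is male, veh is corn oil vehicle, TCP is TCPOBOP and the dotted line is the mean of the array medians of the group. WT female vehicle replicate 2 (triangle) is far above the rest of its group in Fos, at 10.74, and Ier3 lies under the dotted line in every group.

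In WT female mice on vehicle, 1 mouse stood far above the other 3. Its array, replicate 2, was the highest of its group in 7 of the 8 genes. Fos, the partner of Jun in AP-1, was at 5.22, 10.74, 4.09 and 4.16 on the 4 arrays of this group, in the order of replicate number. Replicate 2 was 6.25 log2 units above the mean of the other 3, a 76.1-fold difference in signal and the largest of all 45037 probe sets on this array.

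Atf3, a repressor of stress-response genes among others, was at 4.28, 7.08, 4.36 and 3.81 in the same mice. Jun was at 6.06, 8.25, 6.02 and 5.41, and its other probe set was at 6.51, 9.37, 5.74 and 4.18. Egr1, a zinc finger transcription factor, was at 9.19, 11.51, 9.39 and 8.62. In all of these replicate 2 lay above the rest, by 2.93 log2 units for Atf3, 2.42 for Jun and 2.44 for Egr1. Ier2 was 2.07 units above the mean of the other 3, Dusp1 1.68 and Junb 1.56, and the 7 genes were all among the 41 probe sets with the largest excess. Ier3 was lower by 0.19 units and was the lowest of its group.

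Probe sets at least 1 log2 unit above the mean of the other 3 made up 0.329% of all probe sets on this array. Of 44 other early genes on a separate list, 8 were (18.2%): Gadd45a by 2.92, Ccn1 by 2.66, Nr4a1 by 2.25, Btg2 by 2.22, Fosb by 1.97, Dusp6 by 1.47, Plk3 by 1.22 and Sik1 by 1.04. Nr4a1 is an orphan nuclear receptor, Btg2 and Gadd45a act in growth arrest, and Dusp6 is a phosphatase that switches ERK off. The other early genes had a median excess of 0.39 log2 units, against -0.06 over all probe sets. Their list was chosen with earlier results of these data known, so these shares are descriptions. None of 12 targets of ATF4, 8 heat shock genes, 9 genes induced by glucocorticoids, 10 of hypoxia and 15 of the acute phase reached 1 log2 unit, in either direction.

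Among the cell type markers, 1 of 8 macrophage markers exceeded 1 log2 unit on this array. It was Marco, a scavenger receptor, at 6.54 against 3.99 to 4.31 on the other 3. The median excess of the macrophage list was 0.42, and of the 8 hepatocyte markers 0.07. None of the markers of endothelium (8), stellate cells and fibroblasts (8), cholangiocytes (5), neutrophils (5), lymphocytes (6) or erythroid cells (3) reached 1 log2 unit, with medians of -0.54 for erythroid cells and between -0.09 and 0.07 for the rest. Their part in the levels of the early genes was not tested. Cyp2b10 was at 7.91 on this array and at 5.85 to 6.86 on the other 3.

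**Figure D2:**
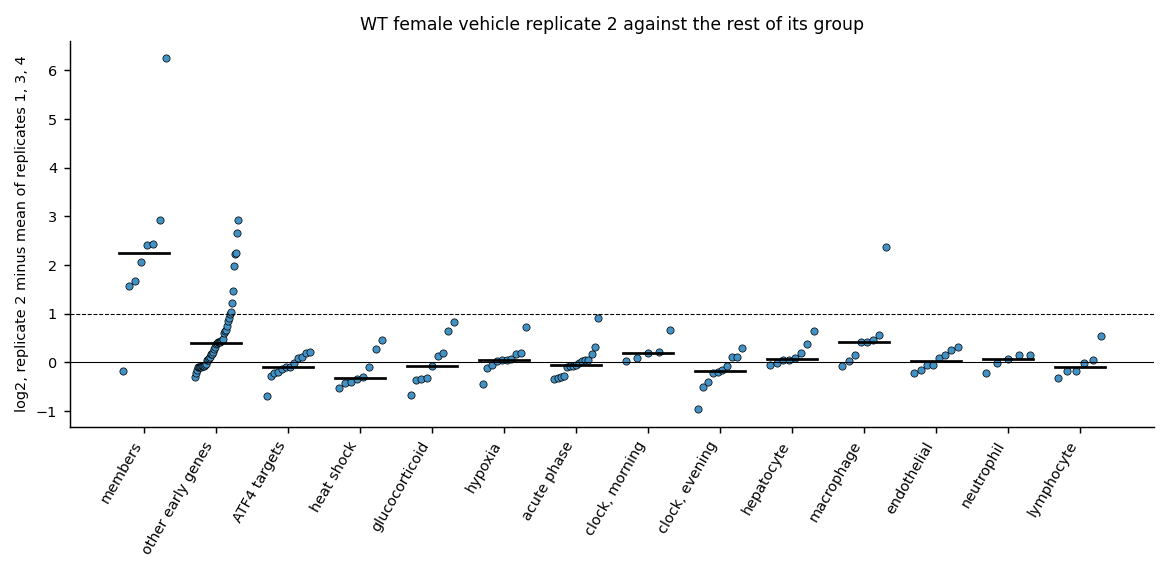
Log2 difference between WT female vehicle replicate 2 and the mean of replicates 1, 3 and 4 for each measured gene (points) of 14 gene lists, with the median (bar) and 1 log2 unit (dashed line). The 8 members have a median of 2.24, with Fos at 6.25, and the other early genes are spread from -0.29 to 2.92.

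Among males on vehicle, 1 mouse of each genotype was also the highest in several of the genes, by smaller amounts. Fos was at 3.33, 5.26, 3.18 and 4.16 in WT male vehicle mice and at 3.60, 5.74, 4.47 and 3.33 in null male vehicle mice. Replicate 2 of each group was the highest in Fos, and these arrays were also the highest of their groups in 5 of 8 genes (WT) and 6 of 8 genes (null), among them Egr1, Jun, Junb and Dusp1. WT male vehicle replicate 1 and replicate 3, and null male vehicle replicate 4, were at or below their array medians in Fos, where a level is close to background. Null female vehicle mice had Fos at 4.08, 4.20, 4.21 and 4.95, a narrow range next to that of WT females.

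After TCPOBOP the mice of a group were closer to each other in Fos. Fos was at 3.91, 4.10, 4.22 and 4.61 in WT females, 4.49, 4.85, 5.06 and 5.11 in null females, 3.62, 3.40, 3.33 and 3.16 in WT males and 3.002, 3.87, 3.49 and 3.30 in null males. It was above the array median on only 1 of 4 of these WT male arrays and 2 of 4 of the null male arrays. The male spread after TCPOBOP is thus that of a signal near background. The spread was taken as the pooled SD within groups, with the 4 vehicle groups and the 4 TCPOBOP groups set apart. Fos had a pooled SD of 1.75 in vehicle groups and of 0.29 in TCPOBOP groups, and without WT female vehicle replicate 2 the first was 0.83. Egr1 had 1.201 and 0.55, Dusp1 0.96 and 0.58, and Ier2 0.65 and 0.28. Within a single genotype and sex the vehicle SD was not always the larger. In WT females it was, for every gene, but with replicate 2 among the vehicle arrays. Without replicate 2, the remaining vehicle arrays spanned a narrower range than the TCPOBOP arrays in Egr1, Atf3, Jun, Junb and Ier2. They spanned a wider one in Fos, Ier3 and Dusp1, and these ranges come from fewer arrays on vehicle. In null females the SD of Atf3 was 0.06 on vehicle and 0.29 after TCPOBOP, and that of Ier2 0.21 and 0.32. Junb and Ier3 also had the larger SD after TCPOBOP there, while Fos, Egr1, Jun and Dusp1 had the smaller. In males Atf3 had the larger SD after TCPOBOP in both genotypes, and Jun in null mice.

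All 8 genes had the larger pooled SD in vehicle groups. This count was 6 of 8 without WT female vehicle replicate 2, where Atf3 turned to 0.17 in vehicle groups against 0.30 in TCPOBOP groups and Ier3 was at 0.12 in both. Over all 45037 probe sets the share with a larger SD in vehicle groups was 50.8%, and 47.7% without that array. Over the 8 groups together the pooled SD was 1.26 for Fos, 0.93 for Egr1, 0.80 for Dusp1, 0.57 for Atf3, 0.56 for Jun, 0.50 for Ier2, 0.49 for Junb and 0.12 for Ier3, where the median probe set had 0.14. Only 3 probe sets of all had a larger pooled SD than Fos, 21 than Egr1 and 34 than Dusp1. Without WT female vehicle replicate 2 the SD of Fos was 0.61, that of Atf3 0.25 and that of Jun 0.37, and the share of probe sets with a smaller SD was 99.8%, 92.2% and 98.5%. These SDs are descriptions and were not tested.

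Ier3 stood apart from the other 7 genes. Its probe set was below the array median on all 32 arrays, with values from 2.42 to 3.40, so its differences are those of a signal near background. Fos was above the array median on 24 of 32 arrays, Atf3 on 27 and Junb on 30. Egr1, Jun, Ier2 and Dusp1 were above it on all 32.

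Whether the genes moved together from mouse to mouse was asked of the deviations of each array from its group mean, so that differences between groups do not enter. The 8 genes give 28 pairs, each tested by Pearson's r and by Spearman's rho with 100000 two-sided permutations of arrays within groups and Benjamini-Hochberg adjustment over the 28 pairs. Over 32 arrays, 14 pairs had a positive r with an adjusted permutation p of 0.05 or less and 0 pairs had a negative one. The 21 pairs without Ier3 had r from 0.39 to 0.87 with a median of 0.65, and the 7 pairs with Ier3 had r from -0.24 to -0.10.

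Fos and Jun, the partners in AP-1, had the highest r, 0.87 (rho 0.72, adjusted permutation p = 0.00336 for r and 0.0102 for rho). Without the 2 arrays farthest from the median of the Fos deviations, with group means taken over the arrays that were left, their r was 0.69. These arrays were replicates 2 and 3 of WT female vehicle mice. Replicate 3, at 4.09 in Fos, was near replicate 4, at 4.16, and far only from a group mean raised by replicate 2. Leaving out these 2 arrays is thus close to leaving out replicate 2 alone. Fos and Ier2 had an r of 0.85 (rho 0.66, adjusted permutation p = 0.00515 for r and 0.0102 for rho), and Fos and Junb one of 0.78 (rho 0.69, adjusted permutation p = 0.00515 for r and 0.0102 for rho). Fos and Dusp1 had an r of 0.61 (rho 0.57, adjusted permutation p = 0.00644 for r and 0.0102 for rho) and Fos and Egr1 one of 0.58 (rho 0.46, adjusted permutation p = 0.0157 for r and 0.05 for rho). Without the 2 farthest arrays the r of Fos was 0.64 with Ier2, 0.73 with Junb, 0.69 with Dusp1, 0.44 with Egr1 and 0.29 with Atf3.

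WT female vehicle replicate 2 carried part of these relations. Without it, 9 of the 28 pairs passed over 31 arrays. The r of Fos was then 0.70 with Junb (adjusted permutation p = 0.0225), 0.65 with Ier2 (0.0225), 0.65 with Jun (0.0084), 0.64 with Dusp1 (0.0133) and 0.42 with Egr1 (0.0979). Atf3 had an r of 0.85 (rho 0.59, adjusted permutation p = 0.0298 for r and 0.0163 for rho) with Fos over all arrays and of 0.24 without this array (adjusted permutation p = 0.245). Its 6 pairs with the genes other than Ier3 then lay between 0.02 and 0.24, and none of them passed. On the 16 TCPOBOP arrays, which do not include that mouse, these pairs lay between 0.03 and 0.71. The highest was that of Atf3 with Fos (adjusted permutation p = 0.129), which did not pass. The 2 probe sets of Jun followed each other with an r of 0.89 over 32 arrays and 0.74 without it.

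Within males, which do not include that mouse, 9 of 28 pairs passed over 16 arrays, with the highest r of 0.92 for Fos and Junb (rho 0.86, adjusted permutation p = 0.00952). Egr1 and Dusp1 had an r of 0.82 in males (rho 0.86, adjusted permutation p = 0.00952) and of 0.17 in females (rho 0.04, adjusted permutation p = 0.644), and this difference was not tested. Within females, 0 of 28 pairs passed over 16 arrays, with r from 0.17 to 0.95 in the 21 pairs without Ier3 and a smallest unadjusted permutation p of 0.00372. On the 16 vehicle arrays 14 pairs passed and on the 16 TCPOBOP arrays 0 did, with median r of 0.70 and 0.38 over the 21 pairs without Ier3 and a smallest unadjusted permutation p of 0.0046 on TCPOBOP arrays. The vehicle arrays include WT female vehicle replicate 2, and no count without it is given for them here. The difference between the treatments was not tested.

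**Figure D3:**
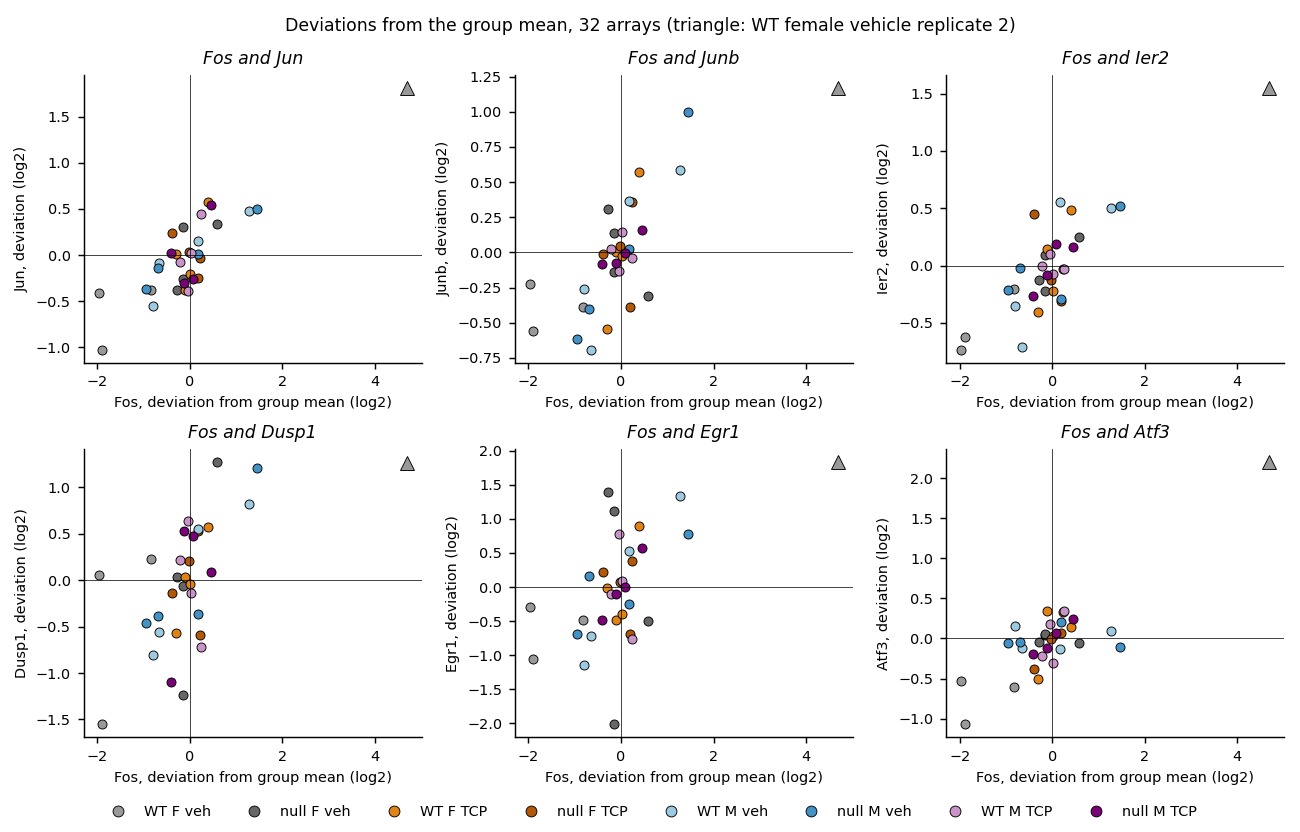
Deviation of each array from its group mean in log2 units for Fos (horizontal axis) and 6 other genes (vertical axes), 32 arrays coloured by group (F female, M male, veh vehicle, TCP TCPOBOP). WT female vehicle replicate 2 (triangle) is alone at the upper right of each panel, and the other arrays still rise along Jun, Junb, Ier2 and Dusp1 while the r of Fos with Atf3 is 0.24 without it.

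**Figure D4:**
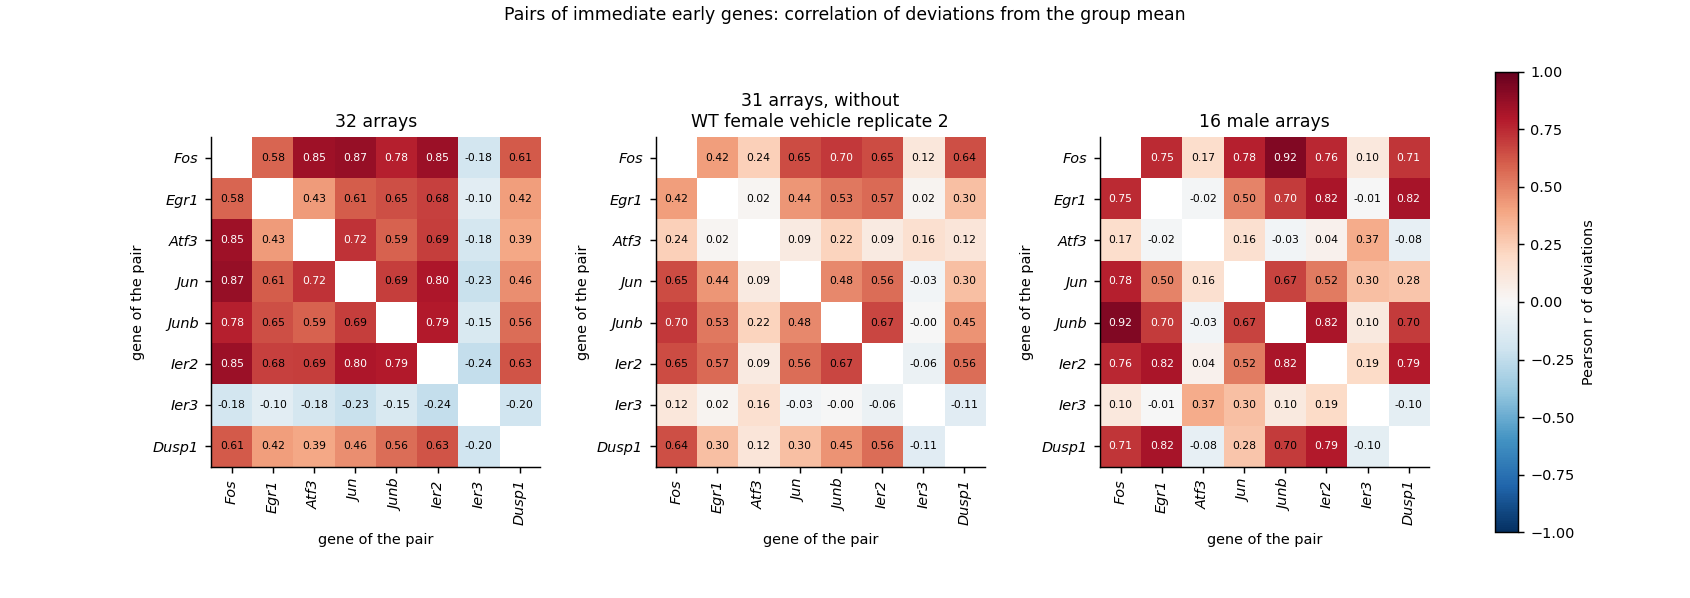
Pearson r of deviations from the group mean for the 28 pairs of genes over 32 arrays, over 31 arrays without WT female vehicle replicate 2 and over 16 male arrays. Atf3 has an r of 0.85 with Fos at the left and 0.24 in the middle, and Fos and Junb are at 0.78, 0.70 and 0.92.

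A high r was rare among other probe sets. An r of at least 0.5 with Fos over the 32 arrays was found in 1.56% of all probe sets and in 6 of the other 7 members. For Egr1 these were 0.586% and 4 of 7, for Junb 0.848% and 6 of 7, and for Dusp1 2.22% and 3 of 7. For Atf3 they were 2.52% and 4 of 7, for Jun 1.15% and 5 of 7, and for Ier2 1.16% and 6 of 7. For Ier3 they were 0.808% and 0 of 7. When WT female vehicle replicate 2 was left out they were 0.377% and 4 of 7 for Fos, 0.413% and 2 of 7 for Egr1, 0.429% and 3 of 7 for Junb and 1.54% and 2 of 7 for Dusp1. They were then 1.81% and 0 of 7 for Atf3, 0.506% and 2 of 7 for Jun and 0.537% and 5 of 7 for Ier2. Arrays share their RNA extract and their normalization across genes, so these shares are descriptions.

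The 10 other genes most like the members, by the mean r with the 8 members over 32 arrays, were Btg2 (0.62), Ptp4a1 (0.57), Ccn1 (0.57), Nr4a1 (0.57), Dusp6 (0.54), Dipk1a (0.52), Atf2 (0.52), Actg1 (0.51), Fosb (0.51) and Slc16a10 (0.51). Of these, Btg2, Ccn1, Nr4a1, Dusp6 and Fosb are on the separate list of early genes, which was chosen with earlier results of these data known. Without WT female vehicle replicate 2, Btg2 had a mean r of 0.43 and rank 2 of all genes, Dipk1a was at rank 36, Atf2 at 78, Ptp4a1 at 89, Ccn1 at 132, Dusp6 at 156, Actg1 at 737, Slc16a10 at 1208 and Nr4a1 at 1258, and Fosb had a mean r of -0.07 and rank 11747. Fosb had a mean level of 3.08, below the array medians.

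The response to TCPOBOP at 48 h split the 8 genes. Egr1, Junb and Ier2 were each called lower in 3 of 4 comparisons, Jun and Ier3 were each called higher in 2 of 4, and Fos, Atf3 and Dusp1 were called in 0 of 4, where a probe set was called at an adjusted p of 0.05 or less over all probe sets and a fold of at least 1.2. In WT females 4 of 8 genes were called (1 higher, 3 lower), where 20.9% of all probe sets were called. This split rested on WT female vehicle replicate 2. Without it Egr1 and Junb were not called, Jun and Atf3 were called higher, Ier2 stayed lower and Ier3 stayed higher. In null females 4 of 8 were called (1 higher and 3 lower, 17.5% of all probe sets), in WT males 2 of 8 (both higher, 10.7%) and in null males 3 of 8 (all lower, 11%). The WT and the null comparisons of a sex share no arrays, but all 4 share 1 estimate of the spread.

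Junb, a member of the Jun family that forms a weaker activator than Jun, was at 5.08, 6.64, 5.24 and 4.91 in WT females on vehicle and at 3.80, 4.34, 4.31 and 4.91 after TCPOBOP. Null females had 6.26, 6.09, 5.81 and 5.64 on vehicle and 4.39, 4.45, 4.01 and 4.76 after TCPOBOP. In both genotypes every TCPOBOP mouse was below every vehicle mouse, in WT females narrowly, as the nearest arrays both round to 4.91. The log2 difference was -1.13 (SE 0.31, adjusted p = 0.00785) in WT females and -1.55 (SE 0.31, adjusted p = 0.000451) in null females, a 2.92-fold lower signal. Without WT female vehicle replicate 2 the difference in WT females was -0.74 (adjusted p = 0.0604) and was not called.

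Male Junb was at 3.73, 5.004, 4.16 and 4.78 in WT mice on vehicle and at 3.46, 3.64, 3.36 and 3.52 after TCPOBOP, again without overlap. Null males had 5.07, 6.47, 5.50 and 4.85 on vehicle and 3.46, 3.71, 3.55 and 3.48 after TCPOBOP. All 8 male TCPOBOP arrays lay between 3.36 and 3.71, near the male array medians of 3.37 to 3.44. The log2 difference was -1.92 (SE 0.31, adjusted p = 4.83e-05) in null males and -0.92 (SE 0.31, adjusted p = 0.0545) in WT males, which did not pass.

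Egr1 was at 7.85, 7.38, 7.48 and 8.77 in WT females after TCPOBOP, against 9.19, 11.51, 9.39 and 8.62 on vehicle. Null females had 10.69, 7.29, 10.42 and 8.81 on vehicle and 7.72, 7.56, 6.81 and 7.87 after TCPOBOP. The groups overlapped in both genotypes, in null females through replicate 2 on vehicle, the lowest of its group. The log2 differences were -1.80 (SE 0.60, adjusted p = 0.0276) and -1.82 (SE 0.60, adjusted p = 0.0309). Without WT female vehicle replicate 2 the first was -1.19 (adjusted p = 0.153) and was not called. The call in null females was lost when only female arrays were fitted (adjusted p = 0.0714).

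Null males had Egr1 at 9.87, 10.50, 9.46 and 9.03 on vehicle and 6.36, 7.42, 6.83 and 6.74 after TCPOBOP. These did not overlap, and the log2 difference of -2.88 (SE 0.60, adjusted p = 0.00101), a 7.35-fold lower signal, was the largest of any member with TCPOBOP. WT males had 6.92, 8.97, 6.50 and 8.17 on vehicle and 6.21, 7.08, 7.76 and 6.88 after TCPOBOP, with a difference of -0.66 (SE 0.60, adjusted p = 0.611) that did not pass. The difference between the null and WT responses of males was tested as an interaction and had a log2 value of -2.22 (SE 0.85, adjusted p = 0.768).

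Ier2 was lower with TCPOBOP in 3 of 4 comparisons. Its log2 change was -1.21 (SE 0.32, adjusted p = 0.0057) in WT females, -1.04 (SE 0.32, adjusted p = 0.0208) in null females and -1.12 (SE 0.32, adjusted p = 0.0187) in null males. In WT males the difference was -0.81 (SE 0.32, adjusted p = 0.119) and did not pass. The first was -0.69 (adjusted p = 0.0387) when WT female vehicle replicate 2 was left out. Its levels were 8.001, 7.90, 8.22 and 8.37 in null females on vehicle and 7.53, 6.96, 6.78 and 7.06 after TCPOBOP, and 7.04, 7.59, 6.77 and 6.86 in null males on vehicle and 5.68, 6.10, 6.13 and 5.86 after TCPOBOP, with no overlap in either. In WT females the highest TCPOBOP mouse, at 7.533, was level with the lowest vehicle mouse, at 7.525.

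Jun was called higher in null females and WT males. It was at 5.37, 5.49, 6.05 and 6.10 in null females on vehicle and at 7.22, 7.01, 6.73 and 6.95 after TCPOBOP. In WT males it was at 5.79, 6.35, 5.32 and 6.03 on vehicle and at 7.52, 7.10, 6.69 and 6.997 after TCPOBOP. Every TCPOBOP mouse was above every vehicle mouse in both, with log2 differences of 1.23 (SE 0.36, adjusted p = 0.0142) and 1.21 (SE 0.36, adjusted p = 0.0246), which are a 2.34-fold and a 2.31-fold higher signal.

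In null males Jun was at 5.54, 6.17, 5.69 and 5.30 on vehicle and 6.56, 7.09, 6.28 and 6.25 after TCPOBOP, again apart, but the log2 difference of 0.87 (SE 0.36, adjusted p = 0.131) did not pass. In WT females it was 0.85 (SE 0.36, adjusted p = 0.0942), with the 4 TCPOBOP mice at 7.30, 6.90, 7.07 and 7.85, all but the high vehicle mouse lying below them. Without WT female vehicle replicate 2 it was 1.45 (adjusted p = 7.48e-05) and was called. The dimmer probe set of Jun gave larger differences, of 2.11 in null females (adjusted p = 0.00865), 1.77 in WT males (adjusted p = 0.0434), 1.68 in null males (adjusted p = 0.0573) and 1.21 in WT females (adjusted p = 0.145), and the same 2 comparisons were called with it. Jun and Junb thus had differences of opposite sign in 4 of 4 comparisons, although their deviations within groups had an r of 0.69.

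Atf3 was not called in any of the 4 comparisons. Null females had 4.24, 4.32, 4.34 and 4.23 on vehicle and 4.84, 5.21, 5.29 and 5.56 after TCPOBOP, with all TCPOBOP mice above all vehicle mice, a log2 difference of 0.94 (SE 0.37, adjusted p = 0.074). In WT females the difference was -0.12 (SE 0.37, adjusted p = 0.868) and turned to 0.61 (adjusted p = 0.0102) without WT female vehicle replicate 2, which was called. In males it was 0.51 (adjusted p = 0.482) in WT and 0.13 (adjusted p = 0.904) in null mice. Male vehicle levels, at 3.18 to 3.71, were near the array medians.

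Fos had log2 differences of -1.84 (adjusted p = 0.106) in WT females, 0.52 (adjusted p = 0.741) in null females, -0.60 (adjusted p = 0.76) in WT males and -0.87 (adjusted p = 0.61) in null males. The first was -0.28 (adjusted p = 0.706) without WT female vehicle replicate 2. Dusp1 had -0.44 (adjusted p = 0.619), 0.58 (adjusted p = 0.515), -0.64 (adjusted p = 0.541) and 0.31 (adjusted p = 0.813) in the same order, the first of which was -0.02 (adjusted p = 0.987) without that array. The SE of these differences was 0.80 for Fos and 0.51 for Dusp1, with only that of Egr1, at 0.60, between them, so moderate changes were not detectable at this number of mice.

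Ier3, which protects cells from death in some settings, was higher by 0.38 (SE 0.09, adjusted p = 0.00145) in WT females and by 0.40 (SE 0.09, adjusted p = 0.00154) in WT males, both without overlap. In null mice the differences were 0.17 (adjusted p = 0.193) in females and 0.15 (adjusted p = 0.321) in males and did not pass. All of these levels are below the array medians. Counted by arrays without overlap, 2 of 8 members were apart in WT females (19.2% of all probe sets), 4 of 8 in null females (19.1%), 4 of 8 in WT males (17.9%) and 4 of 8 in null males (16.4%). The median log2 difference of the 8 members was -0.78, 0.35, -0.62 and -0.37 in that order, against -0.02 to 0.00 over all probe sets. The first of these was -0.15 without WT female vehicle replicate 2.

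**Figure D5:**
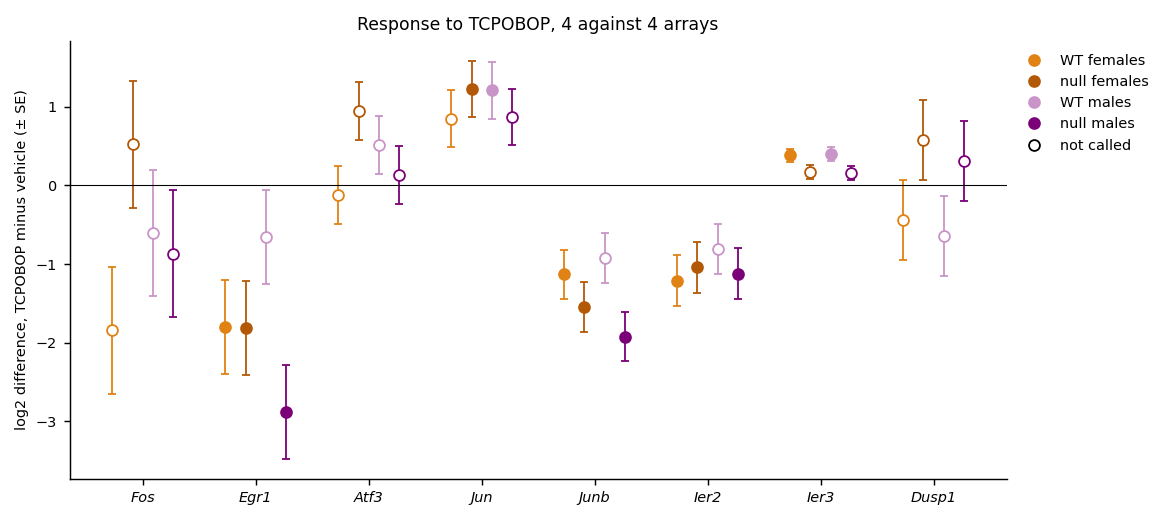
Log2 difference between TCPOBOP and vehicle mice with its SE for the 8 genes in WT and null mice of each sex, 4 against 4 arrays (filled where called, open where not). Junb, Egr1 and Ier2 lie below 0 and Jun above 0 in all 4 comparisons, and Fos and Dusp1 lie on both sides.

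The other early genes were mixed as well. Of 44 measured, 8 were higher and 3 lower with TCPOBOP in WT females, 6 and 3 in null females, 9 and 3 in WT males and 8 and 5 in null males, with medians of 0.00 to 0.03 on the log2 scale. Gadd45b, a growth arrest gene and a known target of CAR, was higher by 4.49 in WT females, 4.25 in null females, 4.11 in WT males and 3.63 in null males (adjusted p = 2.57e-17, 9.23e-17, 2.37e-16 and 7.16e-15). Gadd45a was higher by 3.26, 3.00, 3.67 and 2.84 and Myc, a driver of growth, by 1.63, 1.52, 1.55 and 1.28 in that order. Among those called lower, the log2 difference was -0.53 for Klf4 and -0.47 for Klf2 in WT females and -0.90 for Socs3 in null females. For Zfp36l2, of the same family as Zfp36, it was -0.76 in WT males and -0.73 in null males.

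Of 13 measured kinases and factors that act upstream of the early genes, 3 were higher and 2 lower in WT females, 2 and 3 in null females, 3 and 2 in WT males and 3 and 3 in null males. Map2k1, which encodes the ERK kinase MEK1, was higher by 1.24, 1.02, 0.82 and 0.80 in that order. Egfr, the receptor of epidermal growth factor, had log2 differences of -1.89, -1.87 and -1.19 in WT females, null females and null males, all called, and of -0.83 in WT males, which did not pass. Of 8 heat shock genes 5, 5, 3 and 4 were higher and 0 were lower, with Hspa1b higher by 1.40, 1.59, 1.83 and 1.58. Of 9 glucocorticoid targets 1, 1, 0 and 1 were higher and 4, 3, 2 and 4 lower, and Mt1, a metallothionein, was lower in all 4, with log2 differences of -3.89, -2.90, -1.16 and -2.96. The part of these genes in the levels of the early genes was not tested.

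Markers of cell types were counted in the same comparisons. Of 8 hepatocyte markers 2, 2, 2 and 3 were called lower in WT females, null females, WT males and null males, and of 8 macrophage markers 0, 1, 4 and 0. Of 8 endothelial markers 2, 3, 1 and 0 were lower, and of 6 lymphocyte markers 2, 2, 0 and 0. Of 8 markers of stellate cells and fibroblasts 0, 1, 0 and 3 were higher and 3, 3, 0 and 0 lower. Of 5 cholangiocyte markers 1 was higher in each comparison. Of 5 neutrophil markers 0, 1, 0 and 0 were lower and of 3 erythroid markers 1, 0, 0 and 0. Of 11 targets of CAR, among them Cyp2b10, which is deleted in null mice, 11, 10, 11 and 10 were higher. Their part in the changes of the early genes was not tested.

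No immediate early gene was called between null and WT mice. Called were 0 of 8 members between null and WT females on vehicle (1.76% of all probe sets), 0 of 8 between males on vehicle (0.00222%), 0 of 8 between females after TCPOBOP (0.0222%) and 0 of 8 between males after TCPOBOP (0.0178%) by limma. At an unadjusted p under 0.05 there were 0, 2, 1 and 0 members, where 16% of all probe sets passed in vehicle females, 5.38% in vehicle males, 6% in TCPOBOP females and 4.19% in TCPOBOP males. The 2 were Egr1 and Junb in null males on vehicle, and the 1 was Ier3 in null females after TCPOBOP.

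Egr1 was at 9.87, 10.50, 9.46 and 9.03 in null males on vehicle and at 6.92, 8.97, 6.50 and 8.17 in WT males. Every null male was above every WT male, where 4.03% of all probe sets were apart in this comparison. The log2 difference was 2.08 (SE 0.72, adjusted p = 0.752). For Junb, with null males at 5.07, 6.47, 5.50 and 4.85 and WT males at 3.73, 5.004, 4.16 and 4.78, it was 1.05 (SE 0.38, adjusted p = 0.765), and the groups overlapped. In the other 3 comparisons of genotype 0 of 8 members were apart, with 7.55% of all probe sets in vehicle females, 2.64% in TCPOBOP females and 3.29% in TCPOBOP males.

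In vehicle females the log2 difference between null and WT mice was -1.69 (adjusted p = 0.474) for Fos, -0.68 (adjusted p = 0.483) for Jun and -0.60 (adjusted p = 0.583) for Atf3. These rested on the high WT mouse. Without it Fos had -0.13 (adjusted p = 0.931), Jun -0.07 (adjusted p = 0.916) and Atf3 0.13 (adjusted p = 0.6). Null females had a Junb mean of 5.95 ± 0.28 (SD, n = 4) and WT females one of 5.47 ± 0.79 (SD, n = 4), a difference of 0.48 (adjusted p = 0.604) that was 0.87 (adjusted p = 0.147) without the high WT mouse. Across the 4 comparisons of genotype the members other than Fos, Egr1 and Junb had differences between -0.88 and 0.47.

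The response to TCPOBOP of null mice was not shown to differ from that of WT mice. Called were 0 of 8 members in the interaction of females (0.0377% of all probe sets) and 0 of 8 in that of males (0.02%), with smallest adjusted p of 0.525 and 0.768 among the members. Between the genotype effects of vehicle females and males, 0 of 8 were called (0.06%, smallest adjusted p = 0.395 for Egr1). In unadjusted terms the interaction had p under 0.05 for Fos and Atf3 in females, for Egr1 and Junb in males, and for Egr1 between the sexes, where 9.36%, 6% and 10.5% of all probe sets passed. The contrasts of females and between the sexes included WT female vehicle replicate 2. Without it the WT female response was -0.28 for Fos and 0.61 for Atf3, against 0.52 and 0.94 in null females.

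Clock genes differed between the genotypes in vehicle females. Of 10 evening genes 6 were higher in null vehicle females and of 5 morning genes 3 were lower, with Dbp, an output of the clock, higher by 3.39 (adjusted p = 0.00182) and Arntl, the core activator, with a log2 difference of -1.01 (adjusted p = 0.0256). In the other 3 comparisons of genotype 0 of 10 and 0 of 5 were called, where at most 0.0222% of all probe sets were called. The median log2 differences of the evening and the morning genes were 0.91 and -0.99 in vehicle females. They were 0.31 and -0.47 in vehicle males, 0.20 and -0.53 in TCPOBOP females and 0.13 and -0.01 in TCPOBOP males. With TCPOBOP 1, 0, 4 and 1 of the 5 morning genes were lower in WT females, null females, WT males and null males, where Nfil3 was lower in all but null females. Of the 10 evening genes 1, 0, 0 and 0 were higher and 1, 3, 0 and 1 lower in the same order. Their part in the levels of the early genes was not tested.

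Within each sex the order of the group means was the following. In females Egr1 fell in the order WT vehicle (9.67 ± 1.26 (SD, n = 4)), null vehicle (9.30 ± 1.58 (SD, n = 4)), WT TCPOBOP (7.87 ± 0.63 (SD, n = 4)) and null TCPOBOP (7.49 ± 0.47 (SD, n = 4)). In males it fell from null vehicle (9.72 ± 0.63 (SD, n = 4)) through WT vehicle (7.64 ± 1.14 (SD, n = 4)) and WT TCPOBOP (6.98 ± 0.63 (SD, n = 4)) to null TCPOBOP (6.84 ± 0.44 (SD, n = 4)). Neighbours in the female order, apart from null vehicle and WT TCPOBOP, which were not tested against each other, did not differ beyond their spread.

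Jun in females had its highest mean in WT TCPOBOP mice (7.28 ± 0.41 (SD, n = 4)) and its lowest in null vehicle mice (5.75 ± 0.37 (SD, n = 4)). In males the order was WT TCPOBOP (7.08 ± 0.34 (SD, n = 4)), null TCPOBOP (6.54 ± 0.39 (SD, n = 4)), WT vehicle (5.87 ± 0.43 (SD, n = 4)) and null vehicle (5.68 ± 0.37 (SD, n = 4)). The genotypes did not differ beyond their spread under either treatment. Dusp1 had group means of 7.91 to 8.53 in females and 7.17 to 8.04 in males and SDs of 0.46 to 1.16.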

How the data were processed

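Liver RNA of 32 mice was labelled by 3'-IVT and hybridised to Affymetrix mouse expression arrays. The authors deposited log2 intensities per probe set, made with RMA in Partek, with no versions given in the sources used here. RMA corrects background and sets arrays to one distribution, and array medians differed by sex, so each sex seems to have been normalized by itself. Gene names came from the platform's annotation table, with 28898 naming 1 gene, 551 several and 15588 none. Values were fitted with limma 3.58.1 in R 4.3.3, 1 mean per group, over 16 vehicle arrays for genotype on vehicle and over all 32 arrays otherwise. Calls needed an adjusted p (Benjamini-Hochberg, 45037 probe sets) no higher than 0.05 and a fold no lower than 1.2, as in the study, where ANOVA was used. Correlations used numpy 2.4.6, with ranks from scipy 1.17.1, and 100000 permutations within groups, whose smallest p is 1e-05. All members are named, each by its brightest probe set. Members and gene lists were chosen with earlier results of these data known. Promoter windows came from RefSeq tables (GRCm38.p6). The fits and permutations were tested on simulated data. Groups followed the labels, p-values measure the spread between these mice, and alternatives covered the fit, scaling, filter, threshold and single arrays.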

Additional observations from a re-analysis of the deposited data

Results flagged for a closer look

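In 4 of 64 combinations of a gene and a group, 1 array lay far from the other 3 by Dixon's gap test. Chance gives such a gap in about 1 of 20 groups. Fos was at 10.74, against 4.09 to 5.22 on the other 3 arrays, in WT female vehicle replicate 2. Atf3 was at 7.08, against 3.81 to 4.36 on the other 3 arrays, in the same mouse. Fos was at 4.95, against 4.08 to 4.21 on the other 3 arrays, in null female vehicle replicate 4. Dusp1, the MAPK phosphatase, was at 8.38, against 6.71 to 6.80 on the other 3 arrays, in null male vehicle replicate 2, which was also the highest of its group in 5 other members.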

How the results depend on the processing

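No member was called between null and WT mice, or in a difference of responses, under any alternative run. With TCPOBOP, called members went from 4 to 1 in null females and from 2 to 5 in WT males when only arrays of the same sex were fitted. In WT males they were 1 with the ANOVA of the methods, 4 with array weights and 1 at a fold of at least 1.5. Leaving out 1 array gave 3 to 5 in WT females, 2 to 4 in null females, 1 to 3 in WT males and 2 to 3 in null males. Egr1 in WT females lost its call with the same-sex fit (adjusted p = 0.0637), the ANOVA (0.0537), trend and robust eBayes (0.0511) and array weights (0.0537). Egr1 in null females lost it in the first 3 of these (adjusted p = 0.0714, 0.0598 and 0.0568), Jun (0.0561) and Ier2 (0.0619) in null females with the same-sex fit, and Jun in WT males with the ANOVA (0.0518). Junb in WT males gained the call with the same-sex fit (adjusted p = 0.0361) and array weights (0.0159). It also passed with quantile normalization (0.0439) and without dim probe sets (0.0318). Ier2 in WT males passed with the first 2 of these (0.0246 and 0.0271). Jun in null males (0.0161) and Atf3 in WT males (0.0149) passed with the same-sex fit. Array weights gave the call to Jun in WT females (0.0248) and Atf3 in null females (0.0118). The replicate numbers did not pair the mice, since same-numbered arrays had r of -0.37 to 0.18 and 10 of 32 correlated best with their own number. With the replicate block the called members were 4, 4, 3 and 3 in WT females, null females, WT males and null males, where Junb in WT males passed (adjusted p = 0.024), and 0 in all other comparisons.

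Pairs of genes that passed were 14 over all arrays, 0 in females alone, 9 in males alone, 0 on TCPOBOP arrays alone, and 9 to 17 without 1 array. The last 9 and the SDs of 0.61 for Fos, 0.25 for Atf3 and 0.37 for Jun come from leaving out WT female vehicle replicate 2. These subsets and that omission for the SDs and the likeness were in part chosen after seeing the data. Array weights turned the sign of Ier2 between null and WT females on vehicle, to 0.066, and of Atf3 with TCPOBOP in WT females, to 0.00491, neither called. Leaving out 1 array turned the sign of log2 differences that ranged between null and WT males after TCPOBOP from -0.40 to 0.11 for Egr1, -0.12 to 0.0302 for Ier2, -0.11 to 0.18 for Fos, -0.00106 to 0.0989 for Junb and -0.17 to 0.44 for Dusp1, between null and WT males on vehicle from -0.18 to 0.73 for Fos, between null and WT females after TCPOBOP from -0.11 to 0.20 for Ier2 and -0.12 to 0.25 for Junb, between null and WT females on vehicle from -0.0439 to 0.059 for Ier3, -0.83 to 0.30 for Egr1, -0.95 to 0.13 for Atf3 and -0.38 to 0.39 for Ier2 and with TCPOBOP in WT females from -0.48 to 0.61 for Atf3. Of these values only that of Atf3 without WT female vehicle replicate 2 was called. Of 584 values for single genes in the other settings 558 kept their direction and side of the threshold, 12 lost and 12 gained the call and 2 turned. The causes were not tested. Signals near the array median, as of Ier3 and of Fos and Junb in males, limit what can be measured.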
